A study of Rattus norvegicus with 4 samples.

Results

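The collagen chains are the gene products that assemble, by threes, into the collagens of the extracellular matrix. They were chosen by name: every gene symbol made of Col, a number, the letter a and a number, which gave 43 of the 25399 genes in the table. The naming rule itself used no measured value, but it was set with earlier results of these data known. By molecular type, 11 of the chains are fibrillar (types I, II, III, V, XI, XXIV and XXVII), 6 belong to the type IV collagen of basement membranes, and 26 belong to other collagens. The symbols Col6a3 and Col21a1 were not analysed here. Single-cell RNA sequencing (droplet libraries of the 10x Genomics 3' kit, in which each captured transcript is tagged by a unique molecular identifier, UMI) was done on Sprague Dawley rats, in 4 groups with 1 library each: sciatic nerve at 1 day of age, sciatic nerve at 8 weeks, dorsal root ganglion at 1 day and dorsal root ganglion at 8 weeks. The labels describe no genotype or treatment, do not give the number of animals behind a library, and mention a culture medium for Schwann cells without saying whether the sequenced cells had been cultured.

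The deposited matrix pools the libraries, and each barcode ends in a number from 1 to 4. Which group a number stands for is not given in the sources used here. Libraries are therefore named by that number, and tissues and ages were not compared. Libraries held 10087 to 10559 barcodes and 74425952 to 97572000 UMIs, and 9433, 8426, 6473 and 8445 cells were kept. A total of 191 barcode sequences occurred in more than 1 library, with 26 to 39 per pair of libraries. Cells were sorted into classes by clustering without any collagen gene and naming each cluster from marker genes, none of them a collagen, and 1356 cells of library 2 and 1614 of library 3 stayed unnamed. Levels are counts per 1e6 UMIs of the class (CPM). With 1 library per group there was no replicate and no test, and every interval is an exact 95% interval that covers counting error only. UMIs count transcript ends and were not divided by gene length, so levels of 1 chain are compared between classes, and not levels of different chains.

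In peripheral nerve, fibrillar collagens I, III and V form the fibres around and between axons, and fibroblasts are their best known source. Type IV collagen is the meshwork of basement membranes, which Schwann cells lay around each axon unit, and which perineurial cells, capillary endothelium and mural cells (pericytes and smooth muscle) also build. FACIT collagens (types IX, XII, XIV, XVI, XX and XXII among them) sit on the surface of fibrils, type VI forms beaded filaments, type VIII forms networks, and types XV and XVIII lie between basement membrane and fibrils.

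Collagen transcripts made up 10.5%, 3.32%, 3.14% and 6.48% of all UMIs in fibroblast-like cells of libraries 1 to 4. In Schwann-like cells they made up 0.660%, 0.195%, 0.441% and 1.31%. Perineurial-like cells, found in libraries 1 and 2, gave 1.75% and 1.31%. Endothelial-like cells gave 0.485%, 0.148%, 0.387% and 1.18%, and mural-like cells gave 0.234%, 1.16% and 1.35% in libraries 2 to 4. Neuron-like cells gave 0.0193% in library 2 and 0.0242% in library 3. Within each library the fibroblast-like share was the highest of all classes. Blood classes reached shares near those of other classes: 0.445% in T or NK-like cells of library 1 and 0.188% in neutrophil-like cells of library 2. Erythroid-like cells of libraries 3 and 4 gave 0.716% and 1.28%, in both above the endothelial-like share. How much of each share came from the cells themselves was not tested.

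The makeup of these collagen UMIs differed between classes. Fibrillar chains supplied 96.0%, 88.8%, 83.7% and 88.1% of them in fibroblast-like cells. The basement membrane chains supplied 0.215% to 2.20% there, against 7.52% to 27.4% in Schwann-like cells, 9.39% and 8.29% in perineurial-like cells, 32.5%, 37.5% and 48.3% in mural-like cells of libraries 2 to 4, and 64.2% and 59.2% in endothelial-like cells of libraries 3 and 4. In endothelial-like cells of libraries 1 and 2 they supplied 9.09% and 37.8%. Partner chains of 1 collagen differed widely in UMIs, with 42704 of Col1a2 and 3937947 of Col1a1 over all libraries. The makeup is therefore a share of UMIs and not of collagen molecules.

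Every chain was accounted for. Of the 43, 36 had at least 100 UMIs in 1 library and 20 UMIs in 1 named class of it, and have values. The other 7 were Col23a1, with 0 UMIs in any library, and Col4a6, Col6a4, Col10a1, Col19a1, Col24a1 and Col25a1, with 28, 5, 20, 41, 75 and 65 UMIs in all. For 12 chains the highest class was fibroblast-like in every library in which it was ranked.

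The level in cells that should lack a chain limits the reading of the most abundant ones. Blood cells (T or NK, neutrophil and erythroid classes, summed), which are not a known source of interstitial collagen, carried Col1a1 at 1744, 310, 1313 and 3639 CPM in libraries 1 to 4, and Col3a1 at 1872, 379, 2240 and 4754 CPM. The blood classes were not alike: collagen made up 0.00730% of UMIs in T or NK-like and 0.188% in neutrophil-like cells of library 2, and 0.0347%, 0.334% and 0.716% in T or NK-like, neutrophil-like and erythroid-like cells of library 3. In library 1 it made up 0.445% in T or NK-like and 0.260% in neutrophil-like cells, and in library 4 1.28% in erythroid-like cells. The mix of blood classes also differed between libraries. Library 1 had only 183 T or NK-like and 33 neutrophil-like cells. T or NK-like, neutrophil-like and erythroid-like cells numbered 84, 71 and 14 in library 2, and 23, 88 and 46 in library 3. In library 4 they numbered 12, 8 and 416, with a median of 871.5 UMIs in the erythroid-like cells. The sum is thus not the same background in each library. Its class names come from clusters, and a strict marker gate on single cells (all libraries) left most of these cells without a name. Neutrophil-like cells gave 3 neutrophil, 11 macrophage, 7 neuron and 179 without a name. T or NK-like cells gave 25 T or NK, 45 neuron, 12 mast, 6 fibroblast and 214 without a name. Erythroid-like cells gave 6 erythroid, 1 Schwann and 469 without a name. Col1a1 was seen in 90.7%, 7.69%, 23.6% and 95.4% of the blood cells, so that in libraries 2 and 3 its UMIs came from a minority of them. Levels in blood cells were lower for chains that are less abundant in the libraries: Col5a3 was at 35.6, 10.4, 99.8 and 982 CPM and Col4a1 at 17.1, 8.65, 148 and 681 CPM. Col28a1 was at 1.42 CPM in library 1 and 18.1 CPM in library 4, and had 0 UMIs in libraries 2 and 3, where a floor of 3 UMIs is 5.19 and 4.16 CPM and the exact upper limit is 6.38 and 5.12 CPM.

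**Figure D1:**
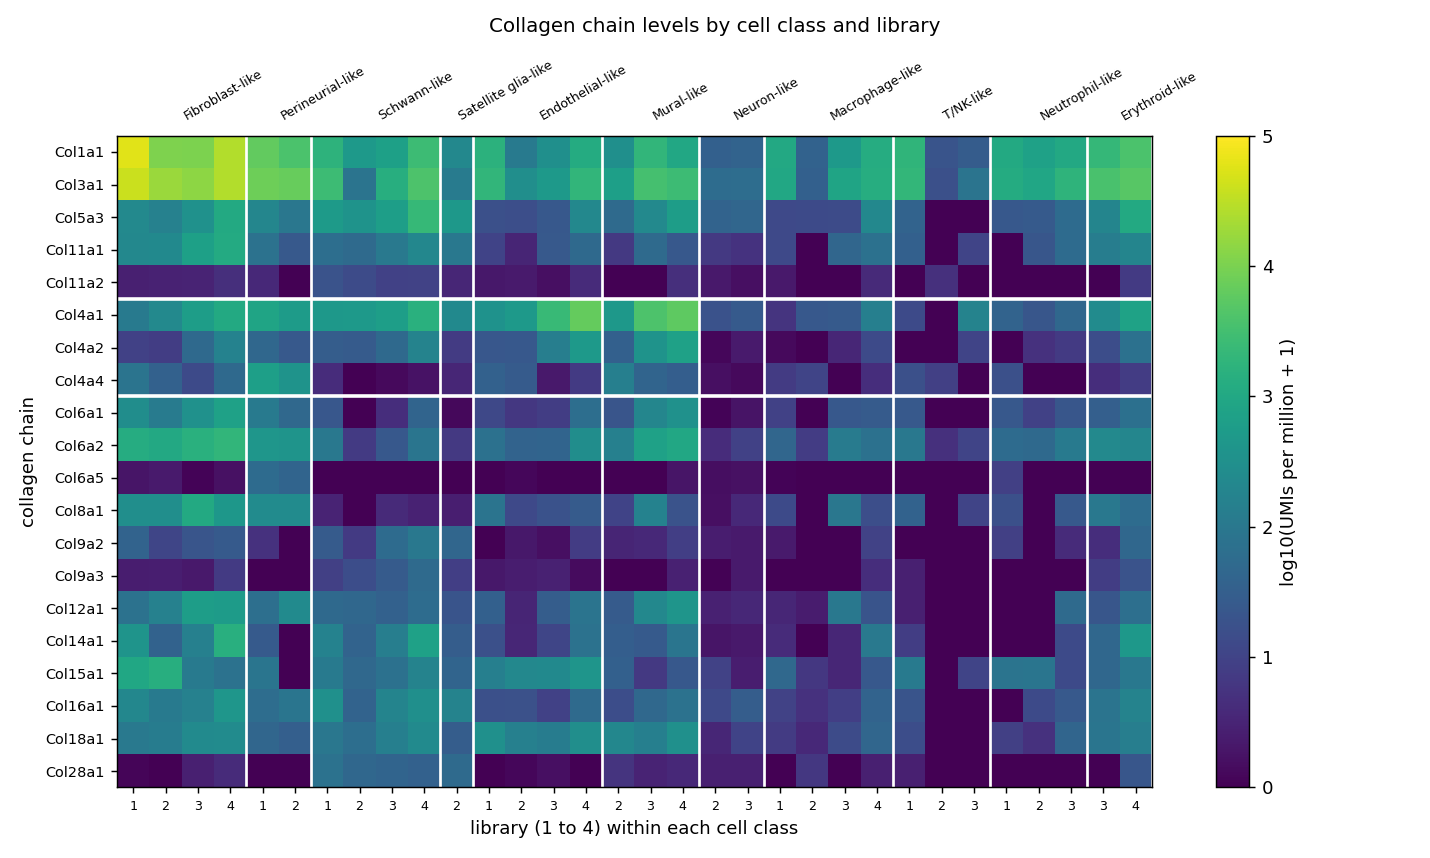
Levels of the 20 chains given in full, as log10(CPM + 1), with 1 column for each library within each cell class and white lines between chain types and classes. Col1a1 and Col3a1 are brightest in fibroblast-like columns, Col4a1 in endothelial-like and mural-like columns of libraries 3 and 4, and Col28a1 is seen mainly in the glial columns.

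Col1a1 encodes the main chain of type I collagen. In fibroblast-like cells it was at 58656, 10787, 10267 and 27040 CPM in libraries 1 to 4, and in Schwann-like cells at 1695, 487, 679 and 2637 CPM, lower by 5.11, 4.47, 3.92 and 3.36 on the log2 scale. The Schwann-like level did not exceed that of the blood cells in libraries 1, 3 and 4, and was above it in library 2. A Col1a1 UMI was seen in 96.2%, 71.4%, 70.7% and 99.6% of Schwann-like cells. In libraries 1, 3 and 4 these shares were above those of blood cells, against the order of the levels, so no order is read there. The part of free RNA in the Schwann-like level was not tested. Perineurial-like cells stood between, at 6243 and 3774 CPM. Col1a2, the partner chain of type I collagen, was also lower in Schwann-like cells in all 4 libraries, with log2 ratios from -4.45 to -2.94.

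Col3a1, the chain of type III collagen, was at 40614, 17989, 14458 and 25974 CPM in fibroblast-like cells. Schwann-like cells had 2646, 84.6, 1389 and 4003 CPM, lower by 3.94, 7.73, 3.38 and 2.70 on the log2 scale. Against the blood cells the Schwann-like level was above in library 1 and below in the other libraries. A Col3a1 UMI was seen in 97.4%, 17.3%, 76.7% and 99.8% of Schwann-like cells, against 88.0%, 5.33%, 33.1% and 97.9% of blood cells. In libraries 2 to 4 these shares go against the order of the levels, so no order is read there. In library 2 the 2 chains went apart in Schwann-like cells: there were 0.174 Col3a1 UMIs per Col1a1 UMI (interval 0.136 to 0.219), against 1.67 (1.64 to 1.69) in fibroblast-like and 1.22 (0.9996 to 1.499) in blood cells of that library. In libraries 1, 3 and 4 the ratio in Schwann-like cells was 1.56, 2.05 and 1.52, above the 0.692, 1.41 and 0.961 of fibroblast-like cells and the 1.07, 1.71 and 1.31 of blood cells.

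Col5a3, a minor chain of the fibril-regulating type V collagen, went the other way. It was at 537, 363, 644 and 2265 CPM in Schwann-like cells and at 228, 159, 342 and 1102 CPM in fibroblast-like cells. The log2 ratio was 1.23 (interval 1.10 to 1.37), 1.20 (0.996 to 1.40), 0.91 (0.83 to 0.99) and 1.04 (1.02 to 1.06), so that library 3 stayed below 2-fold. Satellite glia-like cells, which ensheathe neuron bodies and were found in library 2, had 468 CPM. In every library a glial class was the highest. The blood level of library 4, 982 CPM, was the nearest to the Schwann-like one. Other type V chains were lower in Schwann-like cells: Col5a1 by log2 -3.17 to -2.22 and Col5a2 by -2.28 to -1.86 across libraries. There were 30.4, 60.8, 30.03 and 22.03 Col5a3 UMIs per Col5a1 UMI in Schwann-like cells, against 1.804, 2.95, 2.46 and 2.30 in fibroblast-like cells. Without removal of doublets the library 2 clusters changed and Col5a3 there was at log2 0.85.

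Col11a1 and Col11a2 are chains of type XI collagen, a relative of type V. Col11a1 was at 219, 233, 703 and 1151 CPM in fibroblast-like cells and 61.8, 51.8, 102 and 208 CPM in Schwann-like cells, and was called lower in all 4 libraries. Blood cells had 27.1, 8.65, 77.7 and 181 CPM of Col11a1, nearest to the Schwann-like level in library 4. Col11a2 was scarce, and higher in Schwann-like cells in the 3 libraries with enough UMIs: 17.6, 8.32 and 8.87 CPM against 1.72, 2.12 and 3.72 CPM in libraries 1, 3 and 4. With a strict marker gate on single cells in place of clusters, Col11a2 in library 4 was at log2 0.20. Col2a1, the cartilage fibril chain, was at 19.9 CPM in Schwann-like cells of library 2, with 0 UMIs in fibroblast-like cells, and at 19.5 against 4.88 CPM in library 3. It was higher in fibroblast-like cells (84.3 CPM) than in Schwann-like cells (38.4 CPM) in library 4. Its direction against fibroblast-like cells thus differed between libraries, and that difference was not tested.

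The region upstream of Col5a3 is shown because its transcript is high where those of its partner chains are low. RefSeq (build GRCr8, not the build of the deposited files) places it at chr8:27625949-27626198, minus strand. The motifs searched, on both strands, were the CCAAT box, the GC box (GGGCGG), the TATA box (TATAAA) and a SOX factor motif (ACAAAG), and capitals mark the matches.
Col5a3: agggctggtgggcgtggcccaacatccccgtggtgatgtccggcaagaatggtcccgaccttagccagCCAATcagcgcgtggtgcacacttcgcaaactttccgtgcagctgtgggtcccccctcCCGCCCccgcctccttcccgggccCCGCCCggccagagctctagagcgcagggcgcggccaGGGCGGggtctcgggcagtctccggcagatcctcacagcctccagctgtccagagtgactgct
It held 1 CCAAT box and 3 GC boxes, which do not overlap, and neither of the others. Over the 33469 RefSeq windows of 250 bases before a gene start, 34.0% hold the CCAAT box, 30.5% the GC box, 12.9% the TATA box and 16.3% the SOX motif. A match is a description of letters and was not tested as a binding site.

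Across all chains, a chain was called higher or lower when its ratio passed 2-fold and its counting interval lay on that side of equality. Schwann-like against fibroblast-like cells gave 6 higher and 17 lower of 28 chains measured in library 1, 5 and 19 of 27 in library 2, 5 and 18 of 31 in library 3, and 9 and 21 of 35 in library 4. Of all genes tested, 26.2%, 13%, 11.9% and 14.5% were called higher in libraries 1 to 4, and 12.6%, 19.2%, 16.7% and 17% lower. The median log2 ratio over the chains was -1.72, -2.28, -2.03 and -2.22, against 0.42, -0.03, 0.07 and 0.06 over all genes tested. With edgeR's TMM scaling the median over all genes in library 1 moved to -0.17, those of libraries 2 and 3 to -0.17 and -0.11, and Col5a3 in library 1 to 0.65, below 2-fold. In every library where they were measured (at least 2), 16 chains were called lower: Col1a1, Col1a2, Col3a1, Col4a4, Col4a5, Col5a1, Col5a2, Col6a1, Col6a2, Col6a6, Col8a1, Col9a1, Col11a1, Col13a1, Col17a1 and Col26a1. Only Col9a3, Col11a2 and Col28a1 were called higher in every such library.

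**Figure D2:**
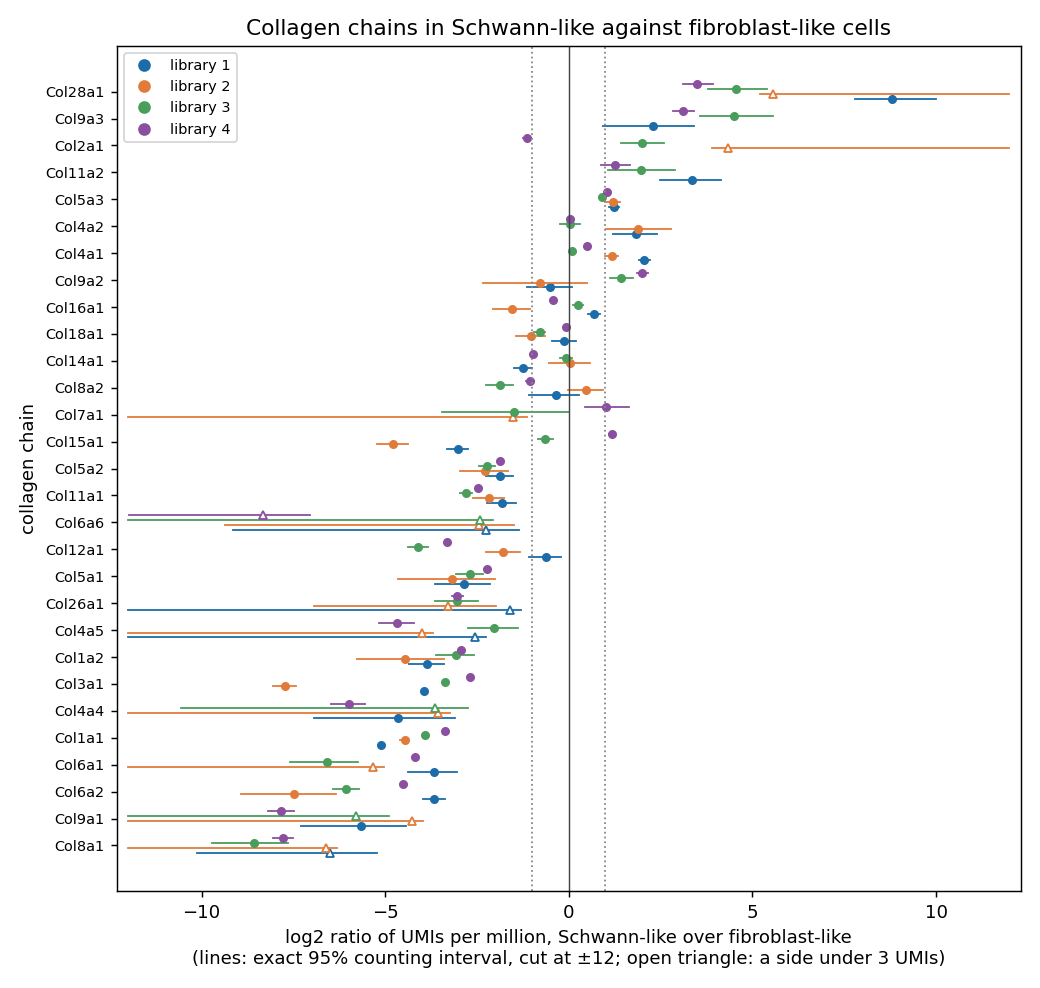
Log2 ratio of the level in Schwann-like over fibroblast-like cells for each chain measured in at least 3 libraries, coloured by library, with exact 95% counting intervals. Dotted lines mark 2-fold. Col28a1 lies farthest to the right in all 4 libraries, and the type I, III, VI, VIII and IX (Col9a1) chains lie to the left.

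Col28a1, the chain of type XXVIII collagen, a beaded-filament relative that has been found around glia of peripheral nerve, was at 75.0, 46.8, 39.7 and 35.4 CPM in Schwann-like cells. Fibroblast-like cells had 0.168, 0, 1.70 and 3.13 CPM. The log2 ratios were 8.80, 4.55 and 3.50 in libraries 1, 3 and 4, and in library 2, where the fibroblast-like count was 0, the level was at least 47.0-fold higher. Satellite glia-like cells of library 2 had 53.1 CPM, and an unnamed cluster of 1098 cells in that library, with markers of Schwann and satellite cells, had 71.9 CPM. Of the remaining classes the highest was the erythroid class of library 4, with 20.3 CPM from 24 UMIs. After each cell was thinned to 1000 UMIs, 7.49%, 4.58%, 4.06% and 3.29% of Schwann-like cells had a Col28a1 UMI (17.3%, 14.5%, 10.3% and 16.7% unthinned), against 0 to 0.0882% of fibroblast-like cells (0 to 3.66% unthinned). Blood classes had none after thinning, except that 1.90% of the 105 erythroid-like cells of library 4 deep enough to thin had one (3.85% of all unthinned, 311 cells left out, median depth 871.5 UMIs). The share in Schwann-like cells of library 4 is the one closest to that background. Median depths were 2643, 3159.5, 3239.5 and 7214 UMIs per Schwann-like cell and 7758, 6750.5, 5639.5 and 13318 per fibroblast-like cell. Thinning left out 6 to 50 Schwann-like and 6 to 15 fibroblast-like cells per library.

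Col9a2 and Col9a3 are chains of the FACIT type IX. Col9a3 was higher in Schwann-like cells in the 3 libraries where it was measured, and the direction of Col9a2 differed between libraries. Col9a3 was at 7.72, 26.2 and 52.0 CPM in Schwann-like cells of libraries 1, 3 and 4 and at 1.57, 1.166 and 6.02 CPM in fibroblast-like cells. In library 2 it had too few UMIs for a ratio, with 13.9 against 1.66 CPM. In libraries 3 and 4 Col9a2 was called higher in Schwann-like cells, at 54.7 and 100.5 CPM, while fibroblast-like cells had 20.2 and 25.04 CPM. In libraries 1 and 2 it leaned the other way, at 26.5 and 5.97 CPM against 37.4 and 10.3 CPM, and was not called, with intervals of the log2 ratio from -1.14 to 0.079 and from -2.34 to 0.50. That difference between libraries was not tested. Satellite glia-like cells had 44.1 CPM of Col9a2, against 5.97 CPM in the Schwann-like cells of the same library. The third chain of type IX, Col9a1, was instead fibroblast-like, at 278, 57.7, 53.6 and 287 CPM, against 5.52, 0, 0.320 and 1.26 CPM in Schwann-like cells.

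Col6a1 and Col6a2, chains of the type VI filament, were highest in fibroblast-like cells in every library. Col6a2 was at 1259, 1057, 1490 and 1954 CPM there and at 99.3, 5.97, 22.4 and 86.2 CPM in Schwann-like cells. Col6a1 followed, at 280, 121, 336 and 738 CPM against 22.1, 0, 3.52 and 40.3 CPM. Mural-like cells had intermediate Col6a2, with 150, 713 and 1008 CPM in libraries 2 to 4. Blood cells had 91.2, 22.5, 140 and 195 CPM of Col6a2 in libraries 1 to 4, above the Schwann-like level in libraries 2 to 4. Col6a5, another type VI chain, had its highest levels in perineurial-like cells, at 55.8 CPM (184 UMIs) in library 1 and 39.4 CPM (5 UMIs) in library 2. In the other classes it did not pass 7.68 CPM, a value from 1 UMI in neutrophil-like cells of library 1. Neuron-like cells held 20 of its 34 UMIs in library 2 and 47 of its 48 in library 3, which is 0.552 and 0.702 CPM.

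Col8a1, a network chain found in vessel walls and other connective tissue, was at 298, 292, 1104 and 445 CPM in fibroblast-like cells and at 2.21, 0, 2.88 and 2.03 CPM in Schwann-like cells. In libraries 3 and 4 it was lower by 8.58 and 7.78 on the log2 scale, and in library 2, with 0 UMIs in Schwann-like cells, it was at least 97.9-fold lower. In library 1, with 2 UMIs, the interval of the log2 ratio ran from -10.1 to -5.23. Perineurial-like cells had 258 and 260 CPM, close to the fibroblast-like level. Col12a1 and Col14a1, FACIT chains of fibril surfaces, varied more: Col12a1 was at 76.9, 157, 604 and 565 CPM in fibroblast-like cells and 49.6, 45.8, 35.2 and 56.9 CPM in Schwann-like cells, and Col14a1 at 389, 37.1, 146 and 1447 CPM against 164, 37.8, 139 and 733 CPM. Col14a1 was thus called lower only in library 1. For Col12a1 in library 2 the highest class was perineurial-like, with 244 CPM (31 UMIs). Blood cells of libraries 3 and 4 had 31.9 and 60.5 CPM of Col12a1, near the Schwann-like levels there.

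Col16a1, a FACIT chain, did not separate Schwann-like from fibroblast-like cells in 1 direction. Schwann-like cells had 328, 37.8, 183 and 312 CPM and fibroblast-like cells 204, 111, 154 and 417 CPM, and only library 2 passed 2-fold. Without removal of doublets the log2 ratio of library 2 turned to 0.21. Satellite glia-like cells had 172 CPM. Col15a1 also changed order with the library: fibroblast-like cells had 931, 1337, 113 and 76.9 CPM, Schwann-like cells 115, 48.8, 72.6 and 175 CPM, and endothelial-like cells 144, 216, 238 and 403 CPM. In libraries 1 and 2 the fibroblast-like class was highest, and in libraries 3 and 4 the endothelial-like class. Col18a1, the other multiplexin, was at 103, 126, 248 and 263 CPM in fibroblast-like cells and 94.9, 61.7, 144 and 252 CPM in Schwann-like cells. Endothelial-like cells had 327, 153, 123 and 293 CPM. Mural-like cells were its highest class in libraries 2 and 4. They had 239 and 200 CPM in the library 2 clusters of 80 and 158 cells, and 140 CPM in library 3. The 126-cell mural-like cluster of library 4 had 323 CPM. Its interval (290 to 359 CPM) overlapped that of endothelial-like cells (273 to 315 CPM).

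Type IV collagen is built from Col4a1 and Col4a2 in nearly all basement membranes, and from Col4a3, Col4a4 and Col4a5 in a few specialised ones. Col4a1 was at 464, 510, 642 and 1508 CPM in Schwann-like cells and 111, 227, 601 and 1075 CPM in fibroblast-like cells. It was called higher in Schwann-like cells in libraries 1 and 2, with log2 ratios of 2.06 and 1.165, and not in libraries 3 and 4, with 0.09 and 0.49. Col4a2 was at 28.7, 25.9, 50.9 and 168 CPM against 8.08, 6.96, 49.4 and 163 CPM, with log2 ratios of 1.83, 1.89, 0.04 and 0.04. Without removal of doublets Col4a1 in library 2 was at log2 0.58, and after thinning Col4a2 in library 1 was at 0.75, both below 2-fold. Whether the libraries differ was not tested.

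Endothelial-like and mural-like cells carried the highest Col4a1 in libraries 3 and 4. Endothelial-like cells had 353, 499, 2340 and 6492 CPM in libraries 1 to 4, and mural-like cells had 471, 3939 and 5775 CPM in libraries 2 to 4. Blood cells of libraries 3 and 4 had 148 and 681 CPM. Perineurial-like cells were the highest class in libraries 1 and 2, with 844 and 544 CPM, and the second of these rests on 69 UMIs. In library 2 the counting intervals of perineurial-like, Schwann-like, endothelial-like and mural-like cells overlapped. The mural-like class of library 2 held clusters of 80 and 158 cells that were not alike. Their Col4a1 was at 748 CPM (638 to 872) and 377 CPM (331 to 428), so the first was above the perineurial-like 544 CPM. Col4a2 was at 135 and 508 CPM in endothelial-like and 367 and 726 CPM in mural-like cells of libraries 3 and 4.

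**Figure D3:**
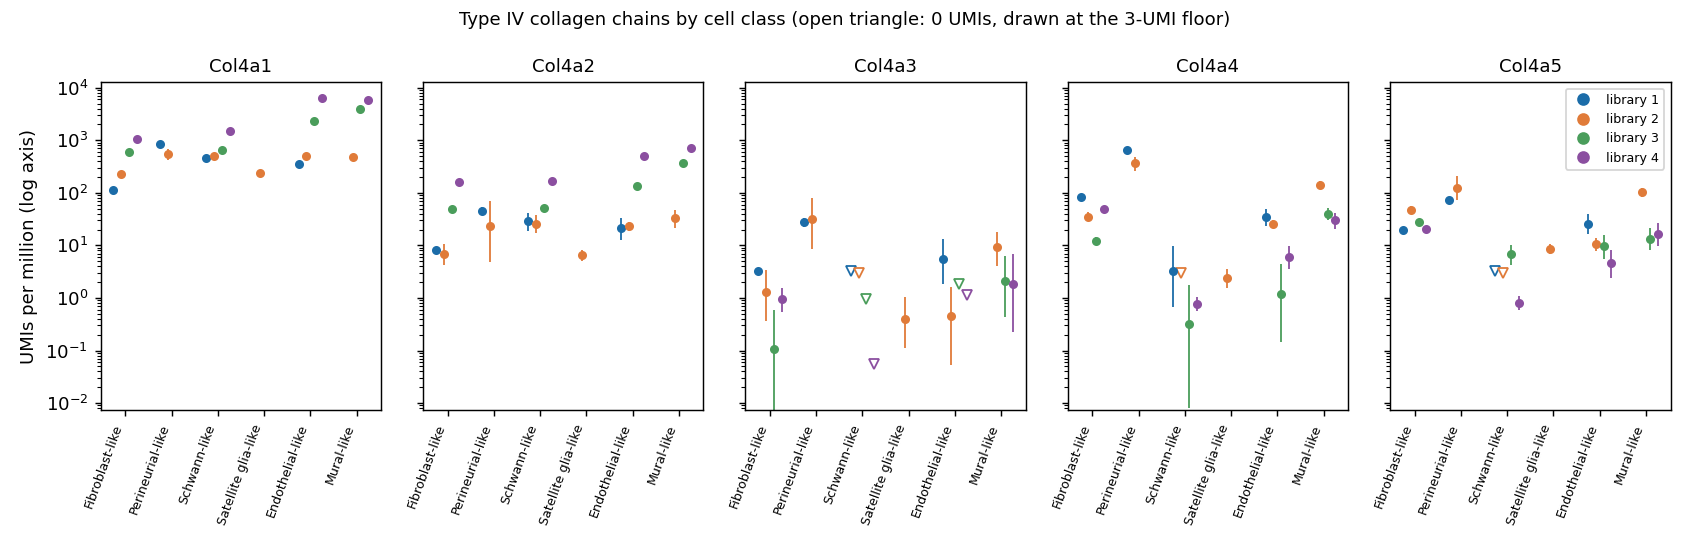
Level of 5 type IV chains (CPM, log axis) in each cell class, coloured by library, with exact 95% counting intervals; open triangles are counts of 0 drawn at 3 UMIs. Col4a1 and Col4a2 are highest in endothelial-like and mural-like cells of libraries 3 and 4, and Col4a3 and Col4a4 in perineurial-like cells of libraries 1 and 2; Col4a5 is high in perineurial-like cells and in mural-like cells of library 2.

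Col4a4 was at 655 and 362 CPM in perineurial-like cells of libraries 1 and 2. Fibroblast-like cells had 83.0, 35.2, 12.1 and 49.8 CPM and Schwann-like cells 3.31, 0, 0.320 and 0.781 CPM. Mural-like cells had 141, 39.6 and 29.8 CPM in libraries 2 to 4. Col4a5 was at 73.1 and 126 CPM in perineurial-like cells, against 19.5 and 48.1 CPM in fibroblast-like cells. Mural-like cells had 102, 13.4 and 16.8 CPM of Col4a5 in libraries 2 to 4. In library 2 their interval (82.1 to 126 CPM) overlapped that of perineurial-like cells (72.1 to 205 CPM, 16 UMIs). The mural-like clusters of library 2 differed in Col4a5, with 27.5 CPM (6 UMIs) in the 80-cell and 128 CPM in the 158-cell cluster. Col4a3 was at 27.3 CPM (90 UMIs) and 31.5 CPM (4 UMIs) in perineurial-like cells, against 3.21 and 1.33 CPM in fibroblast-like cells.

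RefSeq places Col4a1 and Col4a2 head to head on chromosome 16, with 76 bases between their starts, and Col4a3 and Col4a4 head to head on chromosome 9, with 412. The bases between the Col4a2 and Col4a1 starts (chr16:84885521-84885596, plus strand, GRCr8) and the 250 bases before the Col4a3 start (chr9:91323740-91323989, plus strand, GRCr8) are shown because each pair shared classes with high levels. These were endothelial-like and mural-like cells of libraries 3 and 4 for the first pair, and perineurial-like cells for the second. The highest class of Col4a1 and Col4a2 differed in libraries 2 and 4. In mural-like clusters of library 2 Col4a4 was at 147 and 139 CPM, but Col4a3 at 18.4 and 6.24 CPM (4 UMIs each). Capitals mark the GC box on either strand.
Col4a2-Col4a1: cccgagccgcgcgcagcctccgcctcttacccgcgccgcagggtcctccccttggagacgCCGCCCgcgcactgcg
Col4a3: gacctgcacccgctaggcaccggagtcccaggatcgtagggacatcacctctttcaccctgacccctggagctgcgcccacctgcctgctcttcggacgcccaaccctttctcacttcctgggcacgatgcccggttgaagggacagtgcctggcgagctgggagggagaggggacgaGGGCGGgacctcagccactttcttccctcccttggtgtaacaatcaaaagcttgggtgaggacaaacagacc
Each held 1 GC box and none of the other motifs. Windows of 76 bases just before a gene start hold the GC box in 18.1% of RefSeq entries, the CCAAT box in 12.99%, the TATA box in 4.61% and the SOX motif in 5.03%. Col4a5 and Col4a6 are also head to head, on chromosome X, with 1414 bases between their starts. That pair is not shown: Col4a5 had 2548 UMIs in all and Col4a6 had 28. In the table, 34 of the 43 chains had a promoter.

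Against fibroblast-like cells, endothelial-like cells had 3 chains higher and 21 lower of 26 in library 1, 3 and 21 of 26 in library 2, 4 and 23 of 29 in library 3, and 4 and 25 of 34 in library 4. Over all genes tested 21.3%, 19.3%, 11.7% and 11.4% were called higher and 13.8%, 13.3%, 19.3% and 15.9% lower. Col4a1 and Col4a2 were called higher in all 4 libraries, with log2 ratios of 1.66, 1.14, 1.96 and 2.59 and of 1.40, 1.74, 1.45 and 1.64. With TMM scaling Col4a1 in library 2 was at 0.99, below 2-fold. A further 20 chains were lower in every library where measured (at least 2). Col13a1, a membrane-spanning chain, was at 34.2 and 20.6 CPM in endothelial-like cells of libraries 2 and 3, against 0.995 and 9.33 CPM in fibroblast-like cells. In library 4 it was the reverse, with 2.67 against 10.1 CPM.

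Mural-like cells had 4 chains higher and 19 lower of 25 in library 2, 4 and 18 of 28 in library 3, and 3 and 19 of 31 in library 4. Over all genes tested 10.7%, 8.12% and 9.04% were called higher and 15.3%, 8% and 10.1% lower. Col4a1 and Col4a2 were the 2 chains called higher in all 3 libraries, although Col4a1 in library 2 fell from log2 1.05 to 0.84 with TMM scaling, and 14 chains were lower in every library where measured. Perineurial-like cells had 6 higher and 15 lower of 31 chains in library 1 and 3 and 9 of 22 in library 2, against 20.6% and 8.36% of all genes called higher and 9.85% and 5.61% lower. The 3 called higher in both libraries were Col4a1, Col4a4 and Col4a5. The second library had 21 perineurial-like cells. With a looser marker gate on single cells, perineurial-like cells of all libraries gave 4 perineurial, 11 fibroblast and 414 without a name.

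Fibroblast-like clusters within 1 library differed in the collagens they carried. In library 1 the cluster of 3119 cells led by Myoc and Apod had 761 CPM of Col9a1, against 3.996 and 2.92 CPM in the clusters of 1970 and 1061 cells led by Wisp2 and Pi16. It also had 2096 CPM of Col15a1 against 354 and 43.3 CPM, 544 CPM of Col11a1 against 43.8 and 6.28 CPM, and 102 CPM of Col9a2 against 0.700 and 0.541 CPM. Col14a1 had the opposite order, with 3.97 CPM against 578 and 698 CPM. Col1a1 was at 99806 CPM in the cluster led by Wisp2, and at 23559 and 24809 CPM in the other two.

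Library 2 also had clusters that differed in these chains. Its 219-cell cluster, also with Myoc and Apod among its leading genes, had 2227 CPM of Col15a1, 115 CPM of Col9a1 and 0 UMIs of Col14a1, and its 169-cell cluster led by Pi16 had 338 CPM, 0 UMIs and 83.3 CPM. A further 22 cells of library 2 fell in the cluster led by Myoc, with 2301 CPM of Col15a1 and 0 UMIs of Col9a1 and Col14a1. In library 3, the 698-cell cluster led by Mgp and Fbn2 had 143 CPM of Col9a1, 248 of Col15a1, 519 of Col18a1 and 160 of Col26a1, and the 617-cell cluster led by Prss35 had 1.27, 22.2, 66.9 and 10.6 CPM. The Prss35 cluster was higher in Col8a1, with 1608 against 519 CPM, and in Col12a1, with 952 against 152 CPM. In library 4 a single large cluster of 1009 cells had 312 CPM of Col9a1, 1473 CPM of Col14a1 and 77.1 CPM of Col15a1. A cluster led by cell cycle genes held 40, 128 and 116 further cells of libraries 1, 3 and 4. Whether clusters of different libraries correspond was not tested.

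**Figure D4:**
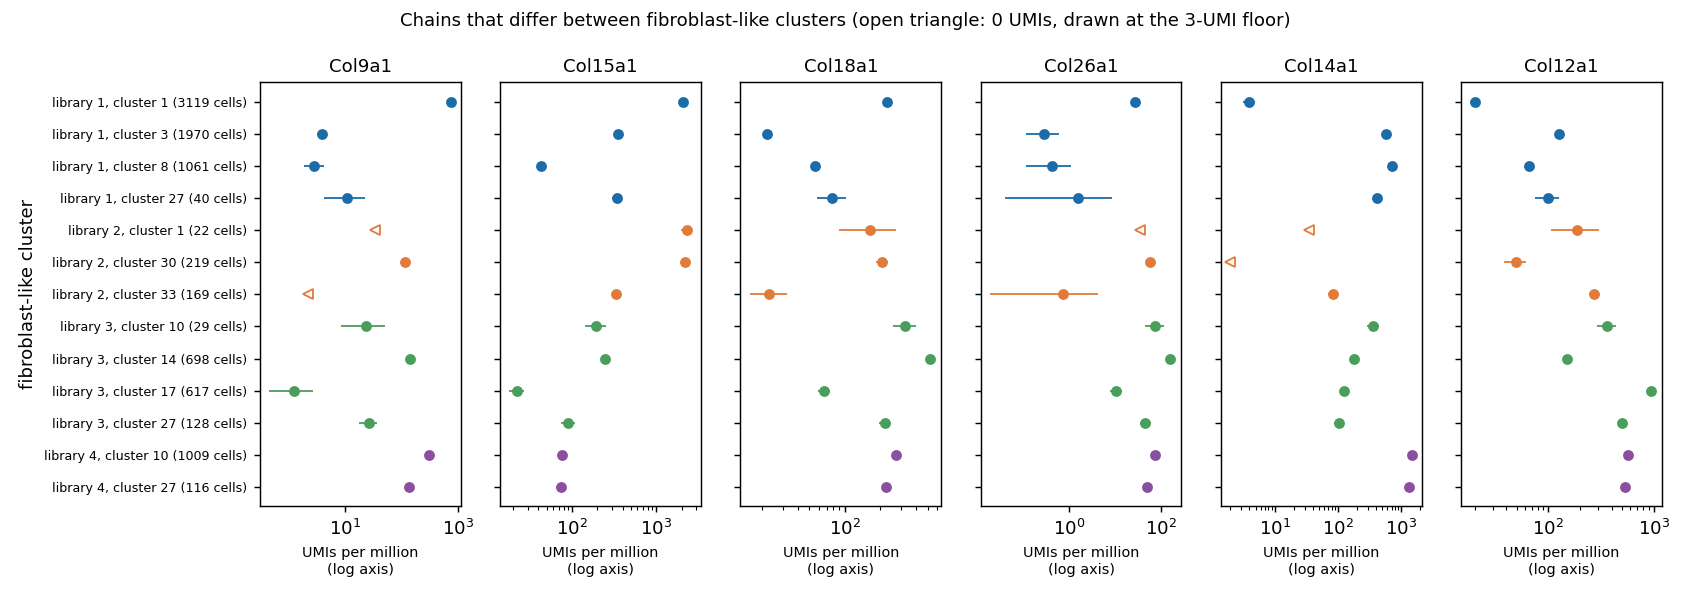
Level of 6 chains (CPM, log axis) in each fibroblast-like cluster of at least 20 cells, coloured by library, with exact 95% counting intervals; open triangles are counts of 0 drawn at 3 UMIs. Within libraries 1 to 3 the clusters high in Col9a1 are also high in Col15a1, Col18a1 and Col26a1.

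Schwann-like cells were divided by myelin. In libraries 1, 3 and 4, 54, 146 and 1004 cells formed the cluster with the largest share of myelin protein UMIs (11.5%, 9.20% and 3.28%), and it was set against the other Schwann-like clusters of its library. Library 2 had 1 Schwann-like cluster of at least 20 cells and no such comparison. That cluster held 224 of the 248 Schwann-like cells of library 2, with 11.9% myelin protein UMIs. In library 1 the other cluster of at least 20 cells held 239 of 313 Schwann-like cells, with 1.37%. Schwann-like classes thus differed between libraries in myelin content, and its part in differences between libraries was not tested. Col16a1 was called lower in the myelin-rich cluster of libraries 1, 3 and 4. Library 1 had 6.04 against 433 CPM (1 UMI, interval of the log2 ratio -11.5 to -3.68). Libraries 3 and 4 had 38.6 against 238 CPM and 148 against 346 CPM. With clusters at resolution 0.4 the log2 ratio of library 3 turned to 0.24. Col28a1 was at 12.1 against 94.3, 29.2 against 44.1 and 22.1 against 38.2 CPM, and was called lower only in library 1, from 2 UMIs. Col5a3 was at 362 against 587, 387 against 736 and 1126 against 2508 CPM, and was called lower only in library 4.

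Over all chains, the myelin-rich clusters had 0 higher and 7 lower of 16 in library 1, 3 and 3 of 20 in library 3, and 3 and 9 of 30 in library 4. Of all genes tested 4.69%, 3.18% and 3.83% were called higher and 14.4%, 14% and 10.9% lower. Col1a1 differed by less than 2-fold in all 3 libraries. Col3a1 was lower by 1.998 and 1.14 on the log2 scale in libraries 1 and 4 and by 0.81 in library 3. The myelin-rich cells were deeper than the other Schwann-like cells in library 3, with a median of 5525.5 UMIs per cell against 2856 and 3811 in the other clusters.

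Most of the measured enzymes that process collagen were called lower in Schwann-like than in fibroblast-like cells. Of 33 genes listed (hydroxylases, chaperones, proteases and cross-linking enzymes), 29 were found, and in Schwann-like against fibroblast-like cells 1 higher and 18 lower of 23, 0 and 17 of 21, 0 and 17 of 23, and 1 and 20 of 28 were called in libraries 1 to 4. Over all genes tested 26.2%, 13%, 11.9% and 14.5% were called higher and 12.6%, 19.2%, 16.7% and 17% lower. The median log2 ratio of the list was -2.36, -1.97, -1.41 and -1.35, beside 0.42, -0.03, 0.07 and 0.06 over all genes. Lox, which cross-links collagen, was at 5.52, 5.97, 10.2 and 9.83 CPM in Schwann-like and 736, 322, 1400 and 1389 CPM in fibroblast-like cells. Pcolce, which enhances procollagen cleavage, was at 81.6, 16.9, 23.03 and 27.7 CPM against 2293, 1214, 775 and 1159 CPM. Adamts2, the procollagen N-proteinase, was at 13.2, 0, 1.28 and 4.05 CPM against 382, 252, 135 and 350 CPM. Loxl1, Loxl2 and P3h3 were called lower in all 4 libraries.

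Of 22 collagen receptors and binding partners, all were found, and 5 higher and 10 lower of 19, 4 and 11 of 17, 5 and 9 of 18, and 6 and 6 of 19 were called. The share of all genes called higher in library 1, 26.2%, is near that of this list, so its 5 of 19 there is no result about the list. The list's median log2 ratio was -1.17, -1.71, -0.94 and -0.51. Adgrg6, the adhesion receptor that binds type IV collagen and is needed for myelination, was at 89.3, 45.8, 70.7 and 122.9 CPM in Schwann-like and 1.49, 2.65, 5.09 and 15.4 CPM in fibroblast-like cells. Adgrg1, a receptor of type III collagen, was at 108, 103.5, 78.4 and 39.2 CPM against 0.168, 11.6, 1.48 and 1.95 CPM. The collagen receptor kinases split by class: Ddr1 was at 201, 100.5, 61.7 and 55.8 CPM in Schwann-like cells, while fibroblast-like cells had 2.80, 12.9, 10.1 and 6.08 CPM. Ddr2 had the opposite order, at 1.10, 0.995, 1.28 and 0.167 CPM against 60.8, 67.0, 39.4 and 41.1 CPM. Bgn, a small proteoglycan of collagen fibrils, was lower in Schwann-like cells by 5.28 to 6.94 on the log2 scale. Postn, a matrix protein that binds collagen, was called lower in libraries 1 to 3 and not in library 4, at 841 against 1414 CPM.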

How the data were processed

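The deposited file held raw UMI counts for 25399 genes, made by Cell Ranger 3.1.0 per the file headers. CASAVA 1.8, Seurat and the build Rnor_6.0 are listed, without roles, per the submitters' processing notes. Barcodes with at least 500 genes and at most 20% mitochondrial UMIs were kept. Scrublet (scanpy 1.11.5) marked 395, 0, 0 and 3 doublets, so it hardly worked in libraries 2 to 4. Leiden clustering (leidenalg 0.10.2, 2000 variable genes, 30 components, resolution 0.8) left out collagens, both lists, mitochondrial and ribosomal genes. A class needed at least 3 markers. UMIs were summed per class and library, and a gene needed 20 UMIs on 1 side and a side 20 cells. Counts under 3 UMIs were set to 3 in ratios. The interval in the call rule, and leaving out genes whose side under 3 UMIs came out higher, were added after seeing the data, since the planned 2-fold rule called chains with too few UMIs. The ratio code was tested on simulated data. Chains with full values were the 4 fibrillar, 2 basement membrane and 8 other chains with the most UMIs, plus chains whose highest class was not fibroblast-like in at least 3 libraries. From each list, up to 6 genes measured in all 4 libraries with the largest absolute median log2 ratio were named. They are thus the extremes of their list, and all 6 named processing genes were lower in Schwann-like cells. Members and lists were chosen with earlier results of these data known. Leading genes of clusters, chains named for a library and sequences shown were chosen after their values were seen. Software was Python 3.11.15 and R 4.3.3 with edgeR 4.0.16, the latter for scaling factors only.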

Additional observations from a re-analysis of the deposited data

How the results depend on the processing

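No paired analysis was possible because each group has 1 library and no library was assigned to a group. The count of chains called lower in every library where measured was 16 for Schwann-like against fibroblast-like cells and 10 with the strict per-cell marker gate. The matching count called higher was 3, and was 1 with a minimum of 100 UMIs or the strict gate and 5 with a looser gate. For endothelial-like cells 2 were higher, and 1 with edgeR TMM factors, median of ratios factors, means of CPM over cells, thinning to 1000 UMIs or the looser gate. For mural-like cells 2 were higher, and 1 with TMM factors, median of ratios factors or means over cells. For perineurial-like cells 9 were lower and 3 higher, against 3 and 1 after thinning and 0 and 0 with at most 10% mitochondrial UMIs, where the libraries with enough cells were 1 and 4. For the myelin-rich Schwann-like clusters 1 was lower and 0 higher, against 2 lower with means over cells, 1 higher with no doublet removal and 0 lower at resolution 0.4. The collagen share of fibroblast-like cells had a median of 4.90% over the 4 libraries, which are different groups and not replicates. That median became 5.53% with totals without collagen and mitochondrial UMIs, 5.02% with means over cells and 5.04% after thinning. It was 4.99% at 10% mitochondrial UMIs, 7.92% with the strict gate and 4.65% with the looser gate.

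Some log2 ratios changed sign. In Schwann-like against fibroblast-like cells of library 2, Col11a1 became 0.11 with the looser gate and Col16a1 became 0.21 with no doublet removal and 0.95 with the looser gate. In endothelial-like against fibroblast-like cells of library 4, Col9a2 became 0.69 after thinning. Col16a1 in the myelin-rich cluster of library 3 became 0.24 at resolution 0.4. With at most 10% mitochondrial UMIs most Schwann-like cells of library 4 were lost (1383 of 6545 left), and in its myelin-rich comparison Col11a1, Col27a1, Col16a1, Col5a3, Col7a1, Col3a1, Col8a1 and Col6a1 became 0.0077, 0.59, 0.24, 0.31, 0.80, 0.062, -1.78 and 0.013. The cause was not tested. The looser gate, the run without dividing clusters and the plain 2-fold rule were chosen after seeing the data, and the plain rule gave 9 higher and 17 lower of 33 chains in library 1. No value could be given with the strict gate for mural-like and perineurial-like cells and the myelin-rich clusters, with the looser gate for mural-like and perineurial-like cells, or with at most 10% mitochondrial UMIs for the myelin-rich clusters outside library 4.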
